A study of Homo sapiens with 33 samples.

Results

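The mitochondrial genome of human cells carries 37 genes, and all 37 have a row in the deposited count tables, which hold 44786 gene rows in all. They were chosen as the rows whose symbol starts with MT-, and they comprise 13 protein genes, 2 rRNA genes and 22 tRNA genes. Hits of the mitochondrial chromosome in 4 lists of hnRNPA1 binding clusters were added. Of the 37 genes, 28 lie in the direction of most mitochondrial mRNAs and are called heavy-strand genes here: 12 protein genes, both rRNA genes and 14 tRNA genes. The other 9, MT-ND6 and 8 tRNA genes, lie in the opposite direction and are called light-strand genes.

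The study compared cells with wild-type (WT) hnRNPA1, an RNA-binding splicing factor, and cells with its D262V form, changed in the C-terminal low complexity domain of the protein. RNA-seq of poly(A)+ RNA covered 7 groups of 3 libraries. Undifferentiated SH-SY5Y neuroblastoma cells were WT or homozygous for D262V. SH-SY5Y cells differentiated for 18 days were WT, homozygous or heterozygous, and all 3 of these groups received retinoic acid at 10 µM. The final medium of these groups held the neurotrophin BDNF at 50 ng/mL, dibutyryl cyclic AMP at 2 mM and KCl at 20 mM. Flp-In T-REx 293 cells, a kidney-derived line, carried a tetracycline-inducible WT or D262V hnRNPA1, and both groups received 1 µg/mL tetracycline for 72 hr. Immunoprecipitation of crosslinked RNA (irCLIP) of hnRNPA1 covered WT and D262V cells of both lines, 3 libraries pooled per list. The labels give neither how many clones stand behind an SH-SY5Y genotype nor the zygosity and differentiation state of the SH-SY5Y cells used for irCLIP. Nothing in them tells whether the 3 libraries of a group came from different cultures, so p-values measure the spread between these libraries, which may be technical.

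Mitochondrial DNA is transcribed from both strands into long precursors that are cut apart, largely at the tRNAs that stand between the other genes. The heavy-strand precursor yields the rRNAs and most mRNAs, which receive short poly(A) tails, while the light-strand precursor carries MT-ND6 and a few tRNAs, and most of the rest of it is degraded. The proteins are subunits of complexes I, III, IV and V of oxidative phosphorylation, on which neurons rely heavily for ATP. A feature of the transcript map bears on strand: the MT-ND5 mRNA runs on across the DNA that encodes MT-ND6 on the other strand, and the MT-CO1 mRNA runs on across MT-TS1 in the same way.

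Reads counted in genes ranged from 8.72 to 15.3 M per differentiated library, 3.62 to 6.85 M per undifferentiated library and 1.99 to 2.91 M per Flp-In library. Of all reads placed once on the genome, the counting assigned 92.2% to 94.6% to no gene. Such reads need not lie outside genes, since a read on the strand that was not counted would also be among them. The library kit keeps strand, but the sources used here do not state which strand the counting took. The rows of 8 noradrenergic markers were compared between the lines. Levels are in CPM, the counts of a gene relative to the library's reads in genes, scaled within a table by edgeR's TMM factors. The summed level of these markers was 323 to 436 CPM in SH-SY5Y libraries and 4.25 to 13.7 CPM in Flp-In libraries. Of these markers CHGA was at 0 in all 21 libraries and TH in all groups except differentiated WT, where it averaged 0.056 CPM. The 5 kidney markers summed to no more than 7.76 CPM in any library, Flp-In included. If reads were counted on the strand opposite the gene, marker rows would hold antisense reads. These levels therefore describe rows and do not establish identity, and the same holds for the marker rows given below.

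Light-strand rows held a large part of the mitochondrial counts in all 21 libraries, 44.2% to 72.2%. They held 49.2% to 53.2% of mitochondrial reads in differentiated WT libraries, 55.2% to 64.6% in undifferentiated WT and 67.4% to 70.4% in Flp-In WT, although they are 9 of 37 genes and 8 of those 9 are tRNA genes. Per kb of gene, MT-TS1, the tRNA for serine that abuts MT-CO1, had the highest mean level of all 37 rows in each WT group, at 246793 CPM per kb in undifferentiated, 81508 in differentiated and 69624 in Flp-In cells. MT-ND6, a complex I subunit and the sole light-strand protein gene, followed at 111238 CPM per kb in undifferentiated cells and at 36080.3 in Flp-In cells. In differentiated cells MT-TP, the proline tRNA gene, stood between them at 74026, with MT-ND6 at 14576. The highest heavy-strand row was MT-ND5, a complex I subunit, with 13669.5, 5607 and 2399.5 CPM per kb in the same 3 groups (undifferentiated, differentiated, Flp-In).

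**Figure D1:**
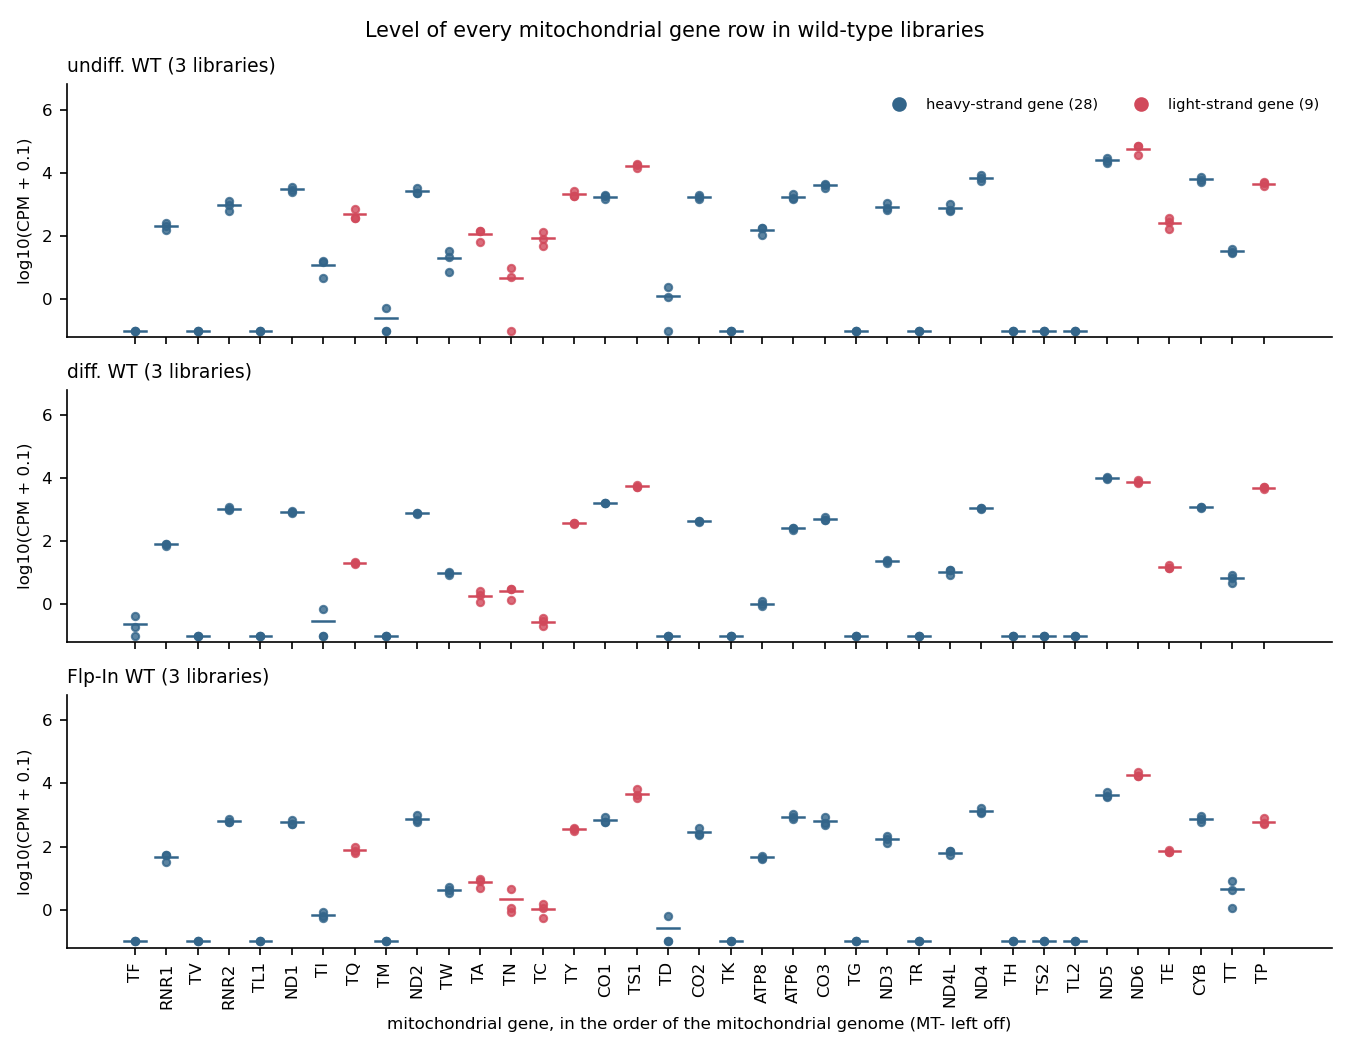
Each point is the level of a mitochondrial gene in a WT library, as log10(CPM + 0.1), with genes in genome order and bars at group means. Light-strand MT-TS1, MT-ND6 and MT-TP stand among the highest rows, and 8 heavy-strand tRNA rows lie on the floor in all 3 panels.

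The tRNA rows split by strand. The 8 light-strand tRNA genes together had 8947 to 170166 reads per library, and the 14 heavy-strand tRNA genes together had 12 to 414. No read was counted in any of the 21 libraries for 8 heavy-strand tRNA genes: MT-TV, MT-TL1, MT-TK, MT-TG, MT-TR, MT-TH, MT-TS2 and MT-TL2. MT-TF and MT-TM had at most 5 reads in any library, and MT-TD at most 10. No light-strand row was at 0 throughout.

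MT-ND6 exceeded its heavy-strand neighbour MT-ND5 per kb in all 21 libraries. The ratio was 6.41, 7.99 and 9.74 in undifferentiated WT, 2.76, 2.63 and 2.42 in differentiated WT, and 14.6, 14.2 and 16.7 in Flp-In WT. Against the median of the 12 heavy-strand protein rows the mean ratio was 41.1, 20.8 and 57.6 in the same 3 groups. MT-TS1, 69 bases long, had on average 9.78, 3.45 and 6.85 times the reads of its 1542-base neighbour MT-CO1 in these groups. These counts hold reads of a single strand at each gene if the counting used strand, and the sources do not say which. If reads were counted on the strand opposite the gene, a value on the MT-ND6 row would stand for heavy-strand RNA such as the MT-ND5 mRNA, and a value on a heavy-strand row for light-strand RNA. The values below are therefore given by row, and "rose" and "fell" are said of the row, not of a transcript.

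**Figure D2:**
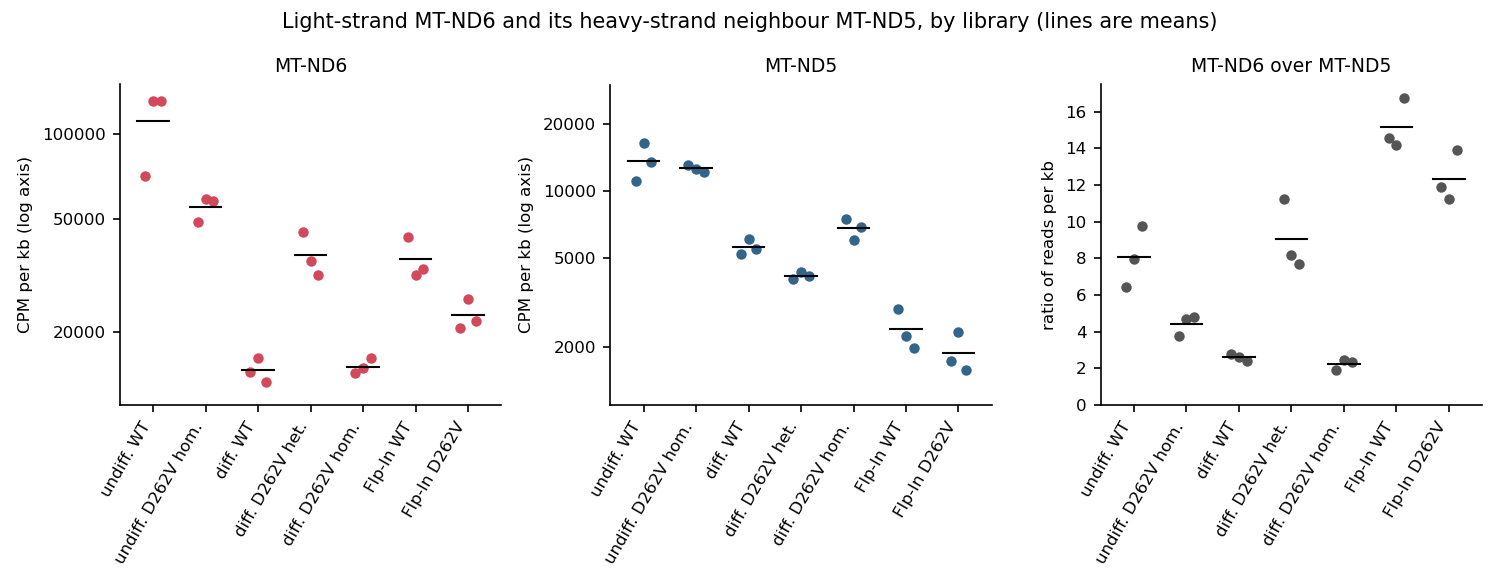
MT-ND6 and MT-ND5 levels per library in CPM per kb (log axes) and their ratio (linear axis), for 7 groups of 3 libraries with lines at means. The ratio lies above 1 in each library, is 7.67 to 11.2 in heterozygous libraries and 2.42 to 2.76 in differentiated WT libraries.

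The authors' splicing tables gave another view of the same RNA, since they list reads that cross junctions on the mitochondrial chromosome. A read that crosses 2 listed junctions counts at both, the strand of a junction is set by its end bases and not by the strand of the read, and events in these tables were selected by the authors on p. The table for differentiated homozygous against WT cells listed 488 mitochondrial junctions on the minus strand (92.8% of those on this chromosome) and 38 on the plus strand. The undifferentiated table listed 39, all minus, and the Flp-In table none of its 15135. Within the homozygous differentiated table the most-read, at chrM:2069-2223 in MT-RNR2, the large rRNA, carried 194709 reads in 6 libraries.

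For several heavy-strand genes the junction reads outnumbered all reads counted in the gene. In the 6 libraries of that table there were 18.1 to 26.4 junction reads per counted read for MT-RNR2, 12.6 to 16.3 for MT-ATP6 (a complex V subunit), 2.41 to 3.33 for MT-ND2 and 2.07 to 2.33 for MT-CO1. For MT-ND6 there were 0.0423 to 0.0487, the lowest of the 11 genes with such junctions, and for MT-ND5 0.204 to 0.241. Thus for 5 genes, MT-ATP8 included at 1.91 to 7, the count table held fewer reads than the junctions of the same gene. The order of the genes depends in part on how many junctions were listed in each. These were 105 minus and 37 plus for MT-RNR2, 82 for MT-ND5, 48 for MT-CO1 and 39 for MT-ATP6. MT-ND2 had 25, MT-ND6 13 and MT-ATP8 4.

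**Figure D3:**
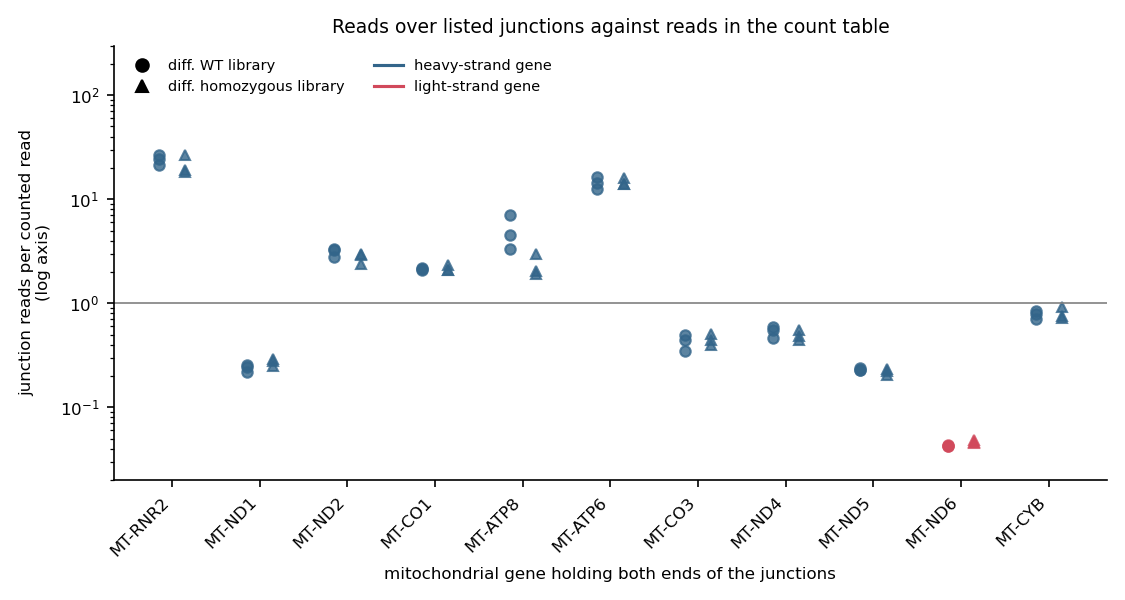
Reads over listed junctions with both ends in a gene, divided by the reads counted in that gene (log axis), in 3 WT and 3 homozygous differentiated libraries. MT-RNR2 and MT-ATP6 lie above 10 and light-strand MT-ND6 lies lowest, under 0.05.

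Each of the 4 lists of hnRNPA1 binding clusters held 1 cluster on the mitochondrial chromosome. The lists hold 519183 clusters in Flp-In WT, 483849 in Flp-In D262V, 583264 in SH-SY5Y WT and 539011 in SH-SY5Y D262V. The cluster lay at chrM:7454-7652 in Flp-In WT, chrM:7481-7679 in Flp-In D262V, chrM:7463-7661 in SH-SY5Y WT and chrM:7509-7707 in SH-SY5Y D262V, each 199 bases long and on the minus strand. The 4 clusters share 144 bases, chrM:7509-7652. On the coordinates of the RefSeq map, and without regard to strand, this stretch holds all 68 bases of heavy-strand MT-TD. It also holds the start of heavy-strand MT-CO2 and the 5′ end of light-strand MT-TS1. As listed, the minus strand of the clusters is that of light-strand genes such as MT-TS1. The clusters thus lie opposite to MT-TD and MT-CO2, and no cluster was listed on the strand of those 2 genes. The overlap with MT-TS1 was 61 bases in Flp-In WT, 34 in Flp-In D262V, 52 in SH-SY5Y WT and 6 in SH-SY5Y D262V.

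The authors' score of the cluster, for which no unit is stated, was 144 in Flp-In WT, above 85.0% of its list, and 106 in Flp-In D262V, above 78.4%. It was 43 in SH-SY5Y WT, under the list's median of 55, and 361 in SH-SY5Y D262V, above 94.6% of its list. Replicates were pooled, so the difference between lists has no replicate check. No cluster carried an MT- symbol. The lists name it MIR12136, a microRNA gene that RefSeq (GRCh38.p14) places on chr1:632615-632685, minus strand, between MTCO1P12 and MTCO2P12, nuclear copies of MT-CO1 and MT-CO2. Its sequence is shown because that name ties the mitochondrial clusters to a nuclear copy, with capitals for the mature part of the hairpin and for the seed, bases 2 to 8, of the mature form. It is the chromosome 1 copy and was not read from the mitochondrial chromosome.
MIR12136: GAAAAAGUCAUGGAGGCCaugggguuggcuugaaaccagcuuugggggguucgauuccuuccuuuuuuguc
hsa-miR-12136: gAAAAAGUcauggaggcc
The hairpin is 71 bases and the mature form 18. Among 1736 mature entries of the RefSeq table the seed occurred in 1, this one.

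In undifferentiated cells, 7 of the 25 mitochondrial rows that passed the low-count filter were lower in homozygous D262V than in WT cells, and none was higher. Over all 11313 genes tested, 3.67% were called (edgeR quasi-likelihood test, Benjamini-Hochberg adjusted p under 0.05 over all genes), 2.11% lower and 1.56% higher. The called rows were 5 of the 8 light-strand rows tested and 2 of the 17 heavy-strand rows. The median log2 fold change was -1.36 over the light-strand rows tested and -0.13 over the heavy-strand rows, beside 0.04 over all genes. In a bulk sample fewer cells of a kind and less RNA per cell cannot be told apart.

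MT-ND6 stood at 37312, 68866 and 69022 CPM in undifferentiated WT and at 25766, 31002 and 30536 CPM in homozygous libraries. The groups did not overlap, and WT replicate 1 lay nearest the homozygous libraries. The fold change was -1.005 ± 0.18 on the log2 scale (SE, n = 3 against 3, adjusted p = 0.013). MT-TY, the tyrosine tRNA gene just before MT-CO1, had 1834, 1815 and 2715 CPM in WT and 689, 543 and 524 CPM in homozygous cells, with a fold change of -1.86 ± 0.17 (adjusted p = 0.000144). MT-TA, the alanine tRNA gene, fell furthest, from 63.7, 141 and 145 CPM to 21.98, 8.25 and 8.64 CPM, a change of -3.15 ± 0.43 (adjusted p = 0.00247). In both of these rows the highest homozygous library stayed below the lowest WT library.

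MT-TQ, the glutamine tRNA gene, changed by -1.71 ± 0.29 (adjusted p = 0.0095) and MT-TE, the glutamate tRNA gene next to MT-ND6, by -1.89 ± 0.41 (adjusted p = 0.0281). For MT-TQ, MT-TA and MT-TE homozygous replicate 1 stood above the other homozygous libraries, at 218 CPM against 119.9 and 112 for MT-TQ. The 2 heavy-strand rows that fell were MT-ND1, from 2403, 3693 and 2839 CPM to 1765, 1694 and 1743 CPM (-0.78 ± 0.13, adjusted p = 0.0091), and MT-ND2, from 2372, 3290.1 and 2384 CPM to 1593, 1522 and 1538 CPM (-0.79 ± 0.12, adjusted p = 0.00518). Both encode complex I subunits. MT-RNR1, the small rRNA, had -0.81 ± 0.20 and did not pass the threshold (adjusted p = 0.0536).

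The remaining complex I rows MT-ND3, MT-ND4, MT-ND4L and MT-ND5 had log2 fold changes of -0.23 to -0.11, and the complex IV rows MT-CO1, MT-CO2 and MT-CO3 of 0.01 to 0.17, with groups that overlapped and no call. MT-TS1, the highest row per kb, had 0.13 ± 0.10 (adjusted p = 0.629). Without homozygous replicate 3 the number of called rows was 2, MT-TA and MT-TY, and without homozygous replicate 2 it was 3, those and MT-ND2. Over all genes the share called fell as well, from 3.67% to 0.79% and to 1.31% in the same order. MT-ND6 lost the call in 4 of 12 alternatives, each with 1 library left out. The rows of 7 mesenchymal or substrate-adherent markers summed to 20.1 to 26.4 CPM in WT and 76.0 to 111 CPM in homozygous libraries. In each group 6 of 7 were detected, and TGFBI was at 0 in both. COL3A1 (mean 0.52 CPM in WT, 33.9 in homozygous cells) and VIM (3.59 and 26.3) rose most, and COL1A1 and SPARC were also higher. FN1 hardly moved (12.9 and 14.4), and COL1A2 was near the floor (0.23 and 0.06). The part of these markers in the result was not tested.

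**Figure D4:**
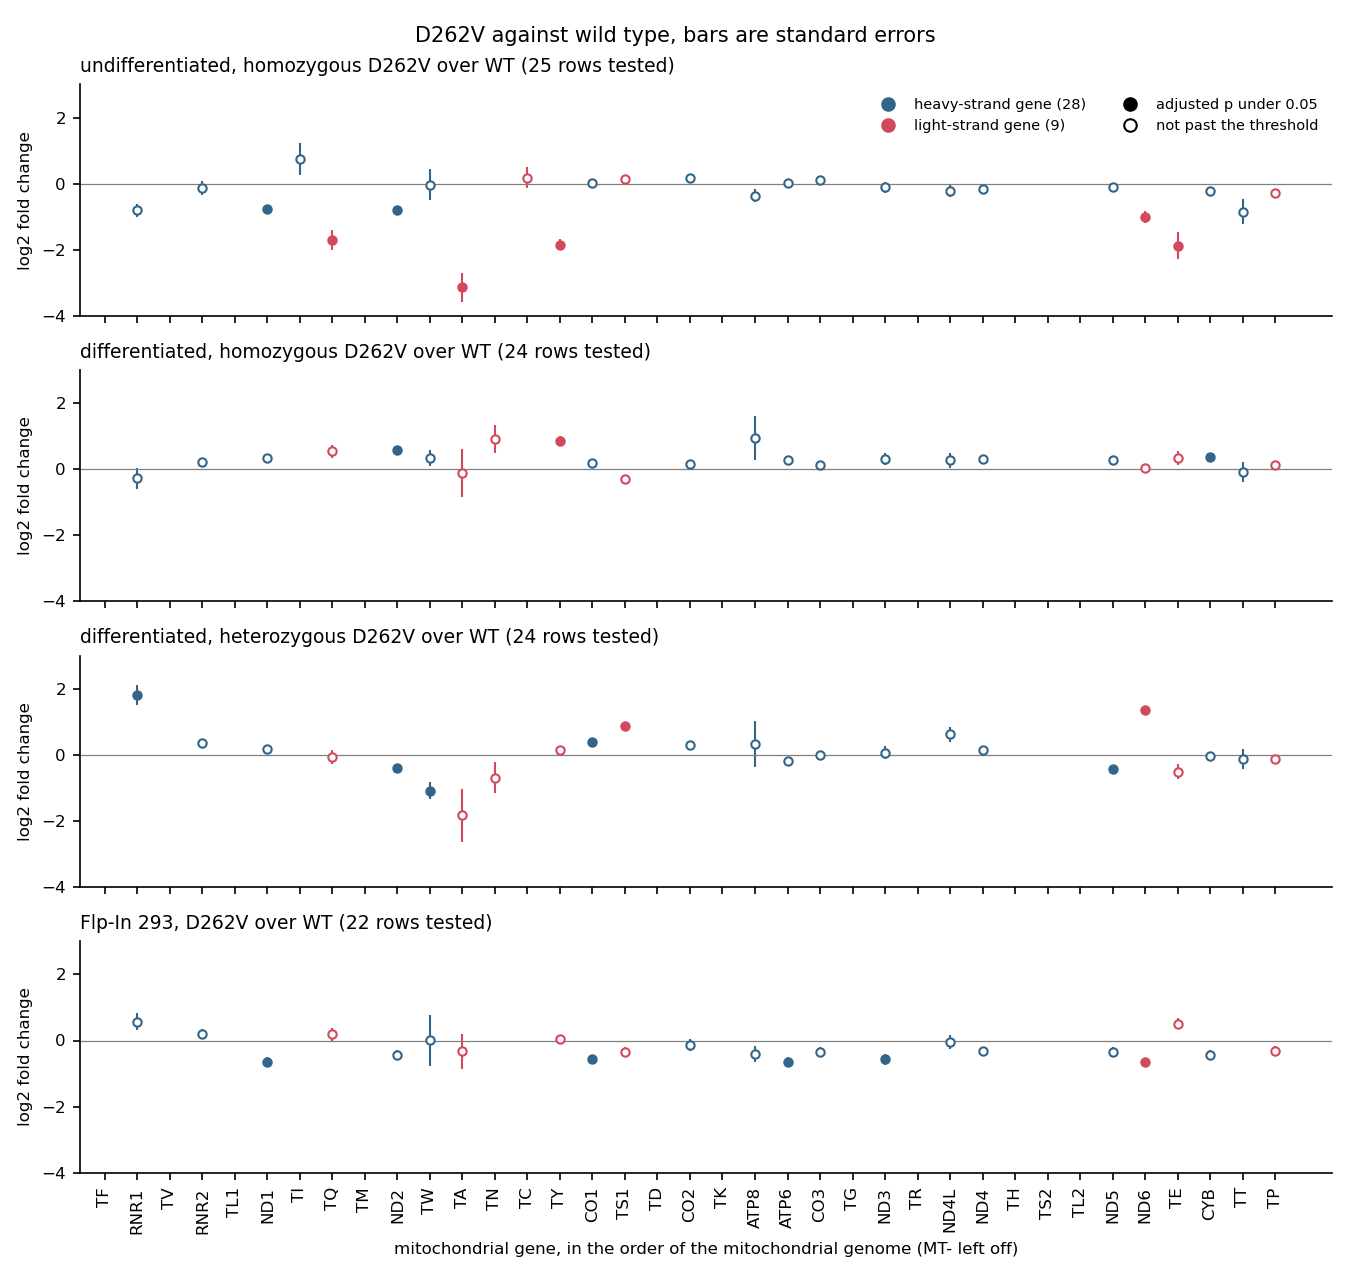
Log2 fold change of D262V over WT for each tested mitochondrial row in genome order, with standard errors and filled points for adjusted p under 0.05. The 7 called rows of undifferentiated homozygous cells lie below 0, while MT-ND6 lies at 1.36 in heterozygous cells and near 0 in differentiated homozygous cells.

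In differentiated cells, 3 of 24 tested mitochondrial rows were higher in homozygous D262V than in WT cells and none was lower, beside 6.08% of 16833 genes called, 3.12% higher and 2.96% lower. MT-ND2 had 729, 791 and 789 CPM in WT and 1082, 1072 and 1277 CPM in homozygous cells, with a log2 fold change of 0.57 ± 0.11 (adjusted p = 0.00107). MT-TY had 362, 389 and 369.7 CPM in WT and 657, 679.7 and 702 CPM in homozygous cells, 0.86 ± 0.13 (adjusted p = 6.12e-05). MT-CYB, the complex III subunit, had 0.36 ± 0.11 (adjusted p = 0.0422), and it lost the call in 7 of 16 alternatives, with RLE scaling (0.0587), with no filter (0.0552) and with any of 5 libraries left out (up to 0.28). No WT library reached a homozygous library in these 3 rows.

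All 12 heavy-strand protein rows had positive log2 fold changes in this comparison, 0.13 to 0.95 with a median of 0.29 beside 0.01 over all genes, and this held under each scaling and with each library left out. Of these, 10 did not pass the threshold, for example MT-ND5 at 0.28 ± 0.10 (adjusted p = 0.0995) and MT-CO3 at 0.13 ± 0.12 (adjusted p = 0.66). MT-ND6 itself had 7553, 8439 and 6964 CPM in WT and 7468, 7774 and 8445 CPM in homozygous cells. The groups overlapped, with a fold change of 0.05 ± 0.11 (adjusted p = 0.891). The heterozygous libraries share the estimate of spread in this fit: with the 2 groups alone 9 rows were called, 8 higher and MT-TS1 lower. Without heterozygous replicate 3, 8 rows were called, 7 higher and MT-TS1 lower. Over all genes the share called also rose, to 11.4% with the 2 groups alone and 9.53% without that library, beside the 6.08% given above.

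In heterozygous cells the MT-ND6 row rose. MT-ND6 had 23707, 18635 and 16672 CPM in heterozygous libraries against 7553, 8439 and 6964 CPM in differentiated WT. The lowest heterozygous library lay well above the highest WT library. The log2 fold change was 1.36 ± 0.11 (n = 3 against 3, adjusted p = 4.57e-10). MT-ND5 moved the other way, from 9447, 11092 and 9938 CPM to 7295, 7844 and 7501 CPM (-0.43 ± 0.10, adjusted p = 0.00265). The ratio of MT-ND6 to MT-ND5 per kb was accordingly 11.2, 8.20 and 7.67 in heterozygous libraries, above each differentiated WT and homozygous library, where it lay between 1.90 and 2.76.

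In all, heterozygous cells had 4 rows higher and 3 lower of 24 tested, beside 16.4% of all genes called, 7.97% higher and 8.47% lower. This comparison and that of the homozygous cells share the WT libraries. MT-TS1 rose from 6294, 5304 and 5274 CPM to 11146, 11730.2 and 7999 CPM (0.87 ± 0.12, adjusted p = 4.97e-06), and its neighbour MT-CO1 rose by 0.39 ± 0.10 (adjusted p = 0.00786). MT-RNR1 was at 84.0, 84.3 and 71.3 CPM in WT and at 122, 150.2 and 570.0 CPM in heterozygous cells, a change of 1.81 ± 0.31 (adjusted p = 9.6e-05) in which replicate 3 stands apart. Without that library the change was 0.77 (adjusted p = 1.36e-05). MT-ND2 fell by 0.40 on the log2 scale (adjusted p = 0.0131), and MT-TW, the tryptophan tRNA gene, had -1.08 ± 0.26 (adjusted p = 0.00383) on 33 to 161 reads per library.

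The heavy-strand protein rows went both ways in heterozygous cells, with a median of 0.11 and 3 of 12 called. Junction reads per counted read were 8.80 to 13.99 for MT-ND2 in heterozygous libraries and 3.51 to 4.08 in WT libraries of the same table, and 0.479 to 0.747 against 0.223 to 0.241 for MT-ND5. For MT-ND6 the order was turned, at 0.0226 to 0.0233 against 0.0278 to 0.0307. These junctions were selected by the authors on this contrast, so the values describe and are not tested. The mesenchymal markers summed to 49.3 to 55.3 CPM in heterozygous libraries, 17.8 to 26.1 in WT and 26.9 to 29.3 in homozygous libraries, and their part in these results was not tested.

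Homozygous and heterozygous cells differed in 12 of 24 rows, 9 higher in homozygous cells and 3 lower, beside 15.9% of all genes, 8.55% higher and 7.33% lower. The lower rows were MT-ND6 (-1.32 ± 0.11, adjusted p = 2.01e-09), MT-TS1 (-1.15 ± 0.12, adjusted p = 8.9e-08) and MT-RNR1 (-2.09 ± 0.31, adjusted p = 2.1e-05). Without heterozygous replicate 3 the value for MT-RNR1 was -1.05. Among the higher rows were 4 protein genes: MT-ND2 at 0.97, MT-ND5 at 0.71, MT-ATP6 at 0.47 and MT-CYB at 0.40, with standard errors of 0.10 to 0.12. The other 5 were the tRNA rows MT-TN at 1.60, MT-TW at 1.42, MT-TE at 0.85, MT-TY at 0.71 and MT-TQ at 0.60. MT-TQ was called although the groups overlapped (adjusted p = 0.0474), and it lost the call in 12 of 16 alternatives, among them DESeq2 (adjusted p = 0.0814) and the 2 groups alone (0.0884). MT-TN rests on 12 to 75 reads per library. The comparisons of the differentiated cells share libraries, so these values restate in part those given for each genotype against WT.

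In Flp-In cells 5 of 22 tested mitochondrial rows were lower with the D262V than with the WT transgene and none was higher, beside 5.84% of 9148 genes called, 3.08% lower and 2.75% higher. MT-ND6 had 22674, 16703 and 17449.5 CPM in WT and 10850.2, 13740.1 and 11486 CPM in D262V cells, -0.66 ± 0.13 (adjusted p = 0.00323). MT-ATP6 had 1059, 762 and 849 CPM in WT and 516, 693 and 493 CPM in D262V cells, -0.65 ± 0.14 (adjusted p = 0.004). MT-ND1 changed by -0.64 ± 0.14 (adjusted p = 0.00507), MT-CO1 by -0.57 ± 0.15 (adjusted p = 0.0197) and MT-ND3, another complex I subunit, by -0.57 ± 0.17 (adjusted p = 0.0395). The groups overlapped for MT-ND3 alone of the 5, and it lost the call in 7 of 12 alternatives, DESeq2 among them (adjusted p = 0.0562).

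WT replicate 1 was the highest WT library and D262V replicate 2 the highest D262V library for MT-ND6, MT-ATP6 and MT-ND1. The call rests on few libraries: no row was called without WT replicate 1 or without D262V replicate 3. Without D262V replicate 2, 11 were called (10 lower, MT-RNR1 higher). Over all genes the share called moved too, to 2.80%, 2.71% and 7.02% in the same order, beside 5.84% with all libraries. All 12 heavy-strand protein rows had negative fold changes, with a median of -0.43 beside 0.03 over all genes. With scaling on all reads placed once, 11 of 12 were negative and the median of all genes moved to 0.12. Under that scaling 3 rows were called lower and MT-TE higher, beside 5.31% of all genes called. Both rRNA rows had positive values that were not called, MT-RNR1 at 0.57 ± 0.26 and MT-RNR2 at 0.19 ± 0.15.

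Differentiation went with lower counts on nearly all mitochondrial rows. In WT cells 24 of 27 tested rows were lower and none higher, while 43.1% of 16793 genes were called, 16.5% lower and 26.6% higher. The median over the 12 heavy-strand protein rows was -2.69 on the log2 scale, beside 0.39 over all genes. The 2 states come from separate deposited tables, so table and state cannot be told apart. Undifferentiated libraries also had fewer reads in genes. The CPM of each state were scaled within its own table, and the fold changes come from a joint fit of both tables.

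The size of the fall varied from row to row within the same strand. MT-ATP8, a small complex V subunit, went from 110.1, 175 and 179 CPM to 0.922, 1.17 and 0.792 CPM in WT cells (-7.48 ± 0.26, adjusted p = 5.67e-12), and MT-ND4L from 661, 1057 and 607 CPM to 8.40, 11.9 and 12.5 CPM (-6.35 ± 0.24, adjusted p = 9.94e-12). MT-ATP6, which shares a transcript with MT-ATP8, changed by -3.01 ± 0.12, and MT-ND4, which shares one with MT-ND4L, by -2.81 ± 0.13. MT-ND3 had -5.41, MT-CO3 -3.18, MT-CYB -2.56, MT-CO2 -2.19, MT-ND1 -2.03, MT-ND2 -2.01 and MT-ND5 -1.49. In both of these pairs the genes overlap and the shorter row had the lower fold change, a difference that was not tested. A read in the overlap could be counted for neither gene, in either state. MT-ND3, which overlaps none of the mitochondrial genes, had -5.41, and the part of the overlap was not tested.

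MT-CO1 fell least among the protein rows, at -0.31 ± 0.10 (adjusted p = 0.0208), and its groups overlapped. That direction turned with the scaling: on all reads placed once MT-CO1 was at 0.43 (adjusted p = 0.0011), and the same scaling moved the median of all genes from 0.39 to 1.11. Under it MT-RNR2 and MT-TP were also called higher, and 22 rows were called lower, beside 50.6% of all genes called. MT-RNR2 was at -0.00 ± 0.18 as first scaled. Among light-strand rows MT-ND6 fell by 3.14 on the log2 scale (adjusted p = 8.53e-10), MT-TS1 had -1.80 ± 0.11 and MT-TC, the cysteine tRNA gene, went from 225, 343 and 465 reads to 1, 4 and 2 reads. MT-TP was not called, at -0.06 ± 0.10 (adjusted p = 0.649). MT-TD is among the 24 called rows with 5, 10 and 0 reads in undifferentiated WT and 0 in each differentiated library, and no fold is given for it.

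In homozygous cells 21 of 27 rows were lower in the differentiated state and MT-TP was higher (0.35 ± 0.10, adjusted p = 0.0114), beside 42.6% of genes called, 18.0% lower and 24.6% higher. With scaling on all reads placed once 19 rows were lower and 5 higher, beside 47.1% of all genes called. With that scaling MT-ND2 was at -0.02 (adjusted p = 0.9), and the median of all genes moved from 0.23 to 0.85. MT-ATP8 had -6.19, MT-ND4L -5.85, MT-ND3 -4.98 and MT-ND6 -2.09. MT-CO1 was at -0.12 ± 0.10 (adjusted p = 0.372) and MT-TY at 0.01 ± 0.14 (adjusted p = 0.963), and neither was called.

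**Figure D5:**
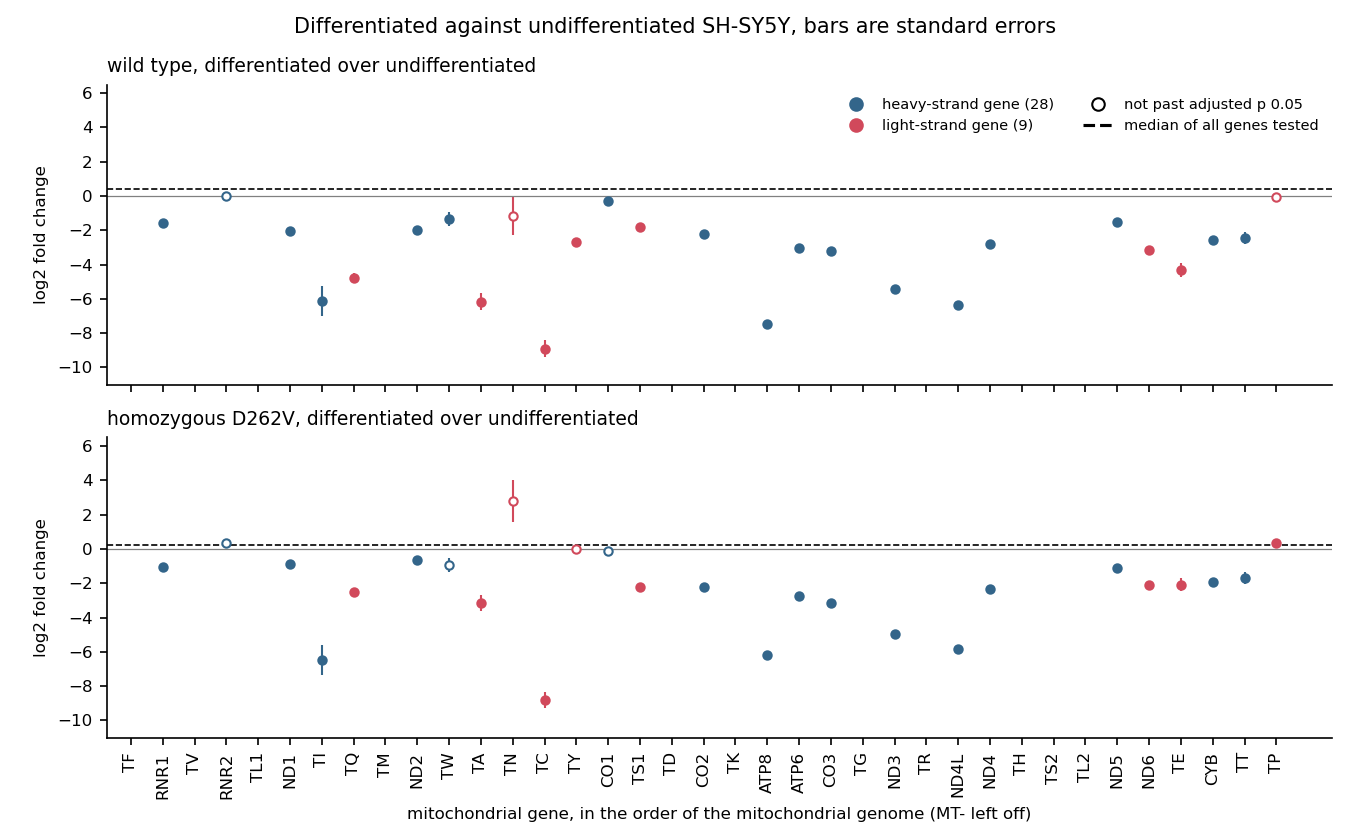
Log2 fold change of differentiated over undifferentiated SH-SY5Y cells for each tested mitochondrial row, with standard errors, the WT comparison above and the homozygous one below. MT-ATP8, MT-ND4L and MT-TC lie lowest and MT-CO1, MT-RNR2 and MT-TP near 0. MT-TD is not drawn because each differentiated library is at 0.

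The effect of homozygous D262V differed between the states for 9 of the 27 rows, by the interaction of genotype and state, beside 4.50% of all genes, 2.11% higher and 2.39% lower. For each of the 9 the difference was positive: the change against WT was higher in differentiated than in undifferentiated cells. MT-TY showed it with the smallest adjusted p, with 0.86 in differentiated and -1.86 in undifferentiated cells and an interaction of 2.72 ± 0.19 (adjusted p = 1.08e-06). MT-ND2 likewise rose in differentiated and fell in undifferentiated cells (interaction 1.36 ± 0.16, adjusted p = 0.000131). MT-ND6 had an interaction of 1.05 ± 0.23 (adjusted p = 0.0157), from changes of 0.05 in differentiated and -1.005 in undifferentiated cells. The others were MT-ND1, MT-TQ, MT-TA, MT-TE, MT-ATP8 and MT-CYB, of which MT-ATP8 lost the call in 13 and MT-CYB in 10 of 18 alternatives.

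The share of reads in genes that fell on all mitochondrial rows together was 10.5%, 15.2% and 14.1% in undifferentiated WT and 10.6%, 10.6% and 10.4% in homozygous libraries, with WT replicate 1 among the homozygous values. In differentiated cells it was 3.51%, 3.92% and 3.55% in WT, 4.18%, 3.95% and 4.26% in homozygous and 5.28%, 5.09% and 4.94% in heterozygous libraries. These 3 groups did not overlap, and heterozygous cells were highest. In Flp-In cells the share was 4.24%, 3.09% and 3.20% in WT and 2.61%, 2.76% and 2.29% in D262V cells, again without overlap. No test was made on this sum, in which MT-ND6, MT-ND5, MT-TS1 and, in the differentiated cells, MT-TP have the most reads.

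Nuclear copies of mitochondrial rRNA genes had few reads. Of 11 MTRNR2L genes, copies of MT-RNR2 that can share reads with it, MTRNR2L4 had the highest mean, 26.05 reads per library, followed by MTRNR2L8 with 18.3, MTRNR2L12 with 14.3, MTRNR2L3 with 4.71 and MTRNR2L1 with 0.619. MTRNR2L4 was lower in differentiated homozygous than in WT cells (-2.42 ± 0.44, adjusted p = 0.000473) and MTRNR2L8 higher (1.60 ± 0.48, adjusted p = 0.0408). MT-RNR2 itself had 0.22 ± 0.13 in that comparison and was not called. Reads shared between such near-identical copies could be split, which leaves their values uncertain. Each list of hnRNPA1 clusters also held clusters named for such copies on nuclear chromosomes, among them 2 or 3 for MTRNR2L8.

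Nuclear genes that serve the mitochondrial genome were read from 174 genes in lists taken from textbook pathways. Their counts carry the same doubt about strand, and a gene and its antisense partner cannot be told apart. In undifferentiated homozygous cells 1 of 96 tested was higher and 4 lower, beside the 3.67% of all genes called. POLG, the mitochondrial DNA polymerase, was lower (-1.11 ± 0.13, adjusted p = 0.00113), as were GABPA, a regulator of respiratory genes (-0.80 ± 0.12), SLIRP, a partner of LRPPRC in mitochondrial mRNA stability (-0.55 ± 0.13), and NDUFB11 of complex I (-0.96 ± 0.23). MTERF4, a member of the mitochondrial termination factor family, was higher (2.05 ± 0.33, adjusted p = 0.00703).

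In differentiated homozygous cells 4 of 129 nuclear genes were lower and none higher, beside 6.08% of all genes called and 2.96% lower, so the lower share is near the background. They were MRPL19 of the mitochondrial ribosome (-3.70 ± 0.39, adjusted p = 1.04e-07), ESRRA, a regulator of mitochondrial biogenesis (-0.52), the rRNA methyltransferase NSUN4 (-0.79) and COX5B of complex IV (-1.34). Heterozygous cells had 6 higher and 12 lower of 129, a share close to the 16.4% of all genes. LRPPRC, which stabilises mitochondrial mRNAs, was lower (-1.02 ± 0.29, adjusted p = 0.0135), as were RNASEH1 (-0.70), TRUB2 (-0.57), MRPL19 (-1.99), MRPS34 (-0.74), SDHD (-1.69), ESRRA (-0.56), NDUFB11 (-0.71), NDUFB3 (-0.79) and NDUFA7 (-0.78). TOP1MT, the mitochondrial topoisomerase, was higher (0.97 ± 0.23, adjusted p = 0.0037), with MTERF4 (1.25), MRPS22 (0.79), TRNT1 (0.58) and COX6C (1.82). In Flp-In cells MRPS22 (1.03 ± 0.18) and HSD17B10, a subunit of mitochondrial RNase P (2.00 ± 0.57), were higher of 95 tested, and none was lower, beside 5.84% of all genes called and 2.75% higher.

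Between homozygous and heterozygous cells 7 of 129 nuclear genes were higher and 10 lower, near the background of 15.9% (8.55% higher, 7.33% lower). Among them were TOP1MT (-1.22), MTERF4 (-1.31), LRPPRC (0.96), MRPS34 (1.09), NDUFB3 (1.18) and DAP3 of the mitochondrial ribosome (0.51). With differentiation of WT cells 25 of 129 nuclear genes were higher and 29 lower, and of homozygous cells 27 and 29. Over all genes 43.1% were called in WT cells (26.6% higher, 16.5% lower) and 42.6% in homozygous cells (24.6% higher, 18.0% lower). The total called is thus near the background. Among the nuclear genes, though, lower calls outnumbered higher ones, while over all genes higher calls outnumbered lower ones. POLG had -3.79 ± 0.14 in WT and -2.46 ± 0.14 in homozygous cells, LONP1, the mitochondrial protease, -3.03 and -3.01, and DAP3 3.62 and 3.795. The median over the nuclear genes was -0.08 in WT, beside 0.39 over all genes and -2.69 over the heavy-strand protein rows. In homozygous cells the median over the nuclear genes was -0.18, beside 0.23 over all genes. In the interaction 4 of 129 were higher and 3 lower, near the background of 4.50% of all genes, with POLG among the higher (1.32 ± 0.19, adjusted p = 0.000631) and MTERF4 among the lower (-2.10 ± 0.43, adjusted p = 0.011).

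Of 81 nuclear subunits of oxidative phosphorylation, counts called NDUFB11 alone of 41 tested in undifferentiated homozygous cells and COX5B alone of 54 in differentiated homozygous cells. Heterozygous cells had 6 of 54 called, 1 of them higher, and Flp-In D262V cells none of 40. The shares over all genes were 3.67%, 6.08%, 16.4% and 5.84% in these 4 comparisons. Reads over listed junctions, which do not depend on the counting, called 7 of 25, all lower, in undifferentiated homozygous cells, beside 10.8% of genes with such reads, 6.06% lower and 4.75% higher. NDUFB2 (-1.02), NDUFB3 (-0.67) and NDUFB1 (-0.51) of complex I, UQCRQ of complex III (-0.67) and COX6A1 of complex IV (-0.47) were among them. By the same measure 4 of 22, all lower, were called in differentiated homozygous cells, beside 32.7% of genes, 16.1% lower and 16.6% higher. Heterozygous cells had 2 of 28 higher and 1 lower, beside 24.8% of genes, 12.6% higher and 12.2% lower. Flp-In D262V cells had 2 of 22 higher and 4 lower, beside 16.5% of genes, 7.69% higher and 8.80% lower. The listed genes were selected by the authors on a changed event, so these shares describe that selection.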

How the data were processed

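The data were 3 tables of gene counts for 21 RNA-seq libraries, 4 cluster lists and the splicing tables. Per the submitters' processing notes, which give no order or options, STAR 2.5.3a, HTSeq, Cufflinks, DESeq2 and build hg38 were used. The count values were deposited as whole reads per gene. The authors called the irCLIP clusters, each with a score, from 3 libraries per list. From the counts, rows that name no gene were left out, low rows were filtered (filterByExpr), libraries were scaled (TMM), and edgeR 4.0.16's quasi-likelihood test was run in R 4.3.3 on all genes of a table. Both tables entered 1 fit for differentiation and for the interaction of genotype and state. Adjusted p under 0.05 (Benjamini-Hochberg over all genes tested) is a call. Levels set across tables rest on separate scaling. Depths are given with the results. On simulated data with 200 changed genes, the fit for heterozygous against WT cells recovered 91% of the 2-fold and 100% of the 4-fold changes. The simulation gave each gene the same spread, changed only genes with many reads and held no outlying library. These shares therefore show that the fit runs as intended and do not give its power in the real libraries.

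The members and lists were chosen with earlier results of these data known. All MT- rows were accounted for, and each one past the threshold, and each protein and rRNA row, was open to naming. Of each nuclear list the genes named are among the 3 of smallest adjusted p past the threshold, and of the MTRNR2L copies the 5 with the most reads are named. Alternatives were DESeq2 1.42.0, other scalings, no filter, a replicate block, 2 groups alone, and each library left out. For groups with the same replicate numbers, deviations from the group means correlated at no more than 0.05, so the numbers were not taken as pairs. Python 3.11.15 and matplotlib 3.10.9 drew the figures.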

Additional observations from a re-analysis of the deposited data

Results flagged for a closer look

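For 9 mitochondrial rows the effect of homozygous D262V against WT differed between differentiated and undifferentiated cells by the interaction term of genotype and state (edgeR quasi-likelihood test, adjusted p under 0.05 over 16793 genes). The interaction is the log2 fold change in differentiated cells minus that in undifferentiated cells. It was 2.72 for MT-TY, 3.01 for MT-TA, 2.24 for MT-TQ and 2.23 for MT-TE, all light-strand tRNA rows, and 1.05 for the light-strand protein row MT-ND6. Among heavy-strand protein rows it was 1.36 for MT-ND2, 1.12 for MT-ND1, 1.29 for MT-ATP8 and 0.61 for MT-CYB. MT-TY, MT-ND2, MT-ND1 and MT-TQ stayed past the threshold with each of the 12 libraries left out in turn. MT-TA rests on 11, 18 and 38 reads in the differentiated WT libraries and on 13, 17 and 26 in the homozygous ones. State and deposited table cannot be told apart in this term.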

How the results depend on the processing

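With 1 library left out, the number of called mitochondrial rows ranged from 2 to 9 in undifferentiated homozygous against WT cells, 2 to 8 in differentiated homozygous, 5 to 9 in heterozygous, 8 to 12 in homozygous against heterozygous, 0 to 11 in Flp-In, 21 to 24 and 21 to 25 for differentiation of WT and homozygous cells, and 5 to 11 in the interaction. Over all genes the share called under the same omissions was 0.79% to 3.34% in undifferentiated homozygous and 3.30% to 9.53% in differentiated homozygous cells. It was 11.3% to 16.2% in heterozygous, 10.2% to 17.5% in homozygous against heterozygous and 2.06% to 7.02% in Flp-In cells. For differentiation it was 33.7% to 42.9% in WT and 33.4% to 45.6% in homozygous cells, and in the interaction 2.08% to 6.51%. The Flp-In count was 0 without WT replicate 1 or D262V replicate 3, and the interaction fell to 5 without differentiated homozygous replicate 1 or 3. The 2 differentiated groups alone gave 9 rows for homozygous against WT, beside 11.4% of all genes called. No filter on low counts gave 14 rows in the interaction, beside 4.42% of all genes called. MT-CO1 in differentiation of WT cells turned from -0.31 to 0.43 with scaling on all reads placed once. MT-ND6 in differentiated homozygous against WT cells, never called, ranged from -0.0175 to 0.12 and turned sign without WT replicate 3 (-0.0175) or homozygous replicate 3 (-0.0169). Against the median heavy-strand protein row in place of MT-ND5, MT-ND6 stood 41.1, 22.3, 20.8, 53.8, 17.3, 57.6 and 50.7 times higher per kb in undifferentiated WT and homozygous, differentiated WT, heterozygous and homozygous, and Flp-In WT and D262V cells. The log2 ratio of the mitochondrial share, heterozygous over WT, was 0.48 of reads in genes and 0.40 of reads placed once. Junction reads called 7, 4, 3 and 6 nuclear oxidative phosphorylation genes in undifferentiated homozygous, differentiated homozygous, heterozygous and Flp-In D262V cells. The cause of these differences was not tested. Over 1502 values of single rows under the alternatives, 1390 kept direction and side of the threshold, 109 lost the call and 3 turned sign.

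With the replicate block, 6, 3, 7, 11, 4, 24, 22 and 7 rows were called in undifferentiated homozygous, differentiated homozygous, heterozygous, homozygous against heterozygous, Flp-In, differentiation of WT, of homozygous cells, and the interaction. The share over all genes with the block was 2.09%, 5.48%, 15.5%, 14.9%, 4.70%, 39.6%, 39.6% and 3.10% in the same order. Scaling on all reads placed once moved the share of calls that were higher, over all genes, from 42.4% to 59.7% in undifferentiated homozygous, 48.5% to 36.1% in heterozygous, 53.9% to 68.6% in homozygous against heterozygous, 47.2% to 59.1% in Flp-In, 61.7% to 83.0% and 57.8% to 78.1% with differentiation of WT and homozygous cells, and 46.9% to 34.5% in the interaction. DESeq2 gave 37.1% in Flp-In. Heavy-strand tRNA rows had at most 414 reads together in a library, and most of them did not pass the low-count filter.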
